A study of Homo sapiens with 2 samples.

Results

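The E2F transcription factors E2F1 to E2F8 and the pocket proteins RBL1 (p107) and RBL2 (p130) were followed in RWPE-1, a human line of noncancerous prostate epithelium, after it received pre-miR-424, a synthetic precursor of the microRNA miR-424. The members were all non-control probes whose RefSeq accession in the array design belongs to any of these 10 genes, which gave 15 probes among the 42405 different probes on each array. All 15 were measured, that is, well above background in both dyes on both arrays and free of outlier spots, as were 25664 probes of 13812 genes over the whole array. Pre-miR-424 or, in the control cells, negative control #1 was transfected at 30 nM, and the labels give neither a time after transfection nor the number of cultures. On the array with normal labelling the RNA of pre-miR-424 cells carried Cy5 and the control RNA carried Cy3, and on the dye swap the dyes were exchanged. The labels call the arrays technical replicates, so they counted as 1 replicate, no p-value was computed, and the SD between the 2 arrays covers labelling and hybridisation only. All ratios are log2 ratios of pre-miR-424 over control, with the sign turned on the swap, so that a log2 ratio of 0.585 in size is a 1.5-fold difference.

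E2F factors bind short DNA sequences in front of genes for DNA synthesis and cell division. E2F1, E2F2 and E2F3 are known as activators of these genes, E2F4 and E2F5 hold them down in resting cells together with p107 or p130, E2F6 represses without pocket proteins through Polycomb-type complexes, and the atypical E2F7 and E2F8 repress without a DP partner. Cyclin D with CDK4 or CDK6 and cyclin E with CDK2 phosphorylate the pocket proteins, which then release the E2F factors, and miR-424 belongs to the miR-15/16 family, which is known for lowering several of these cyclins and kinases.

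A microRNA pairs with its targets mainly through its seed, bases 2 to 8 of the mature strand, and the sequences below are shown because the seed defines the family that the precursor adds to. The labels do not say which arm pre-miR-424 delivers, so both arms of the human hairpin are given, followed by family members. Sequences are from RefSeq (GRCh38.p14), 5′ to 3′, with the seed in capitals.
hsa-miR-424-5p: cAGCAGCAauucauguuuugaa
hsa-miR-424-3p: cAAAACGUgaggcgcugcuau
hsa-miR-15a-5p: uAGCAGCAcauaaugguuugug
hsa-miR-16-5p: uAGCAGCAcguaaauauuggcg
hsa-miR-195-5p: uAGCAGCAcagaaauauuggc
hsa-miR-497-5p: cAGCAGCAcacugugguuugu
The 5p arm lies at chrX:134546680-134546701 on the minus strand. Its seed AGCAGCA was shared by 7 mature names from 8 hairpin genes in the RefSeq table, whereas the 3p arm has another seed. Target sites in the members' transcripts were not searched here.

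E2F genes are themselves known targets of E2F factors, so the sequence in front of 8 of the 10 members was read as well. From RefSeq 10 windows were read, from 250 bases before to 50 bases after a start site, with more than 1 start site for E2F3 and RBL2. E2F5 and E2F8 were not searched, so nothing is said about the sequence in front of them. The letters TTTCCCGC, TTTCGCGC, TTTGCCGC and TTTGGCGC, which are forms of the E2F site, and TTTGAA, the core of the CHR element that the MuvB complex binds, were searched on both strands. E2F letters occurred in 4 windows of 4 genes and CHR letters in 2 windows of 2 genes. Over all 35116 windows of the same length, 3.31% held E2F letters and 15.2% held CHR letters. The 100 bases before the start site are printed on the gene's strand for the windows with E2F letters, because these stretches carry every such match, with the matched letters in capitals.
E2F1, chr20:33686386-33686485, minus strand: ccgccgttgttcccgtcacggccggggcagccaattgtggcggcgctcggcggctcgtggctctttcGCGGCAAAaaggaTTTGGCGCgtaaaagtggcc
E2F2, chr1:23531234-23531333, minus strand: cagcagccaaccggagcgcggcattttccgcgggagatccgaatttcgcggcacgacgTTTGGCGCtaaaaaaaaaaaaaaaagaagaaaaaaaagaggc
E2F3, chr6:20401779-20401878, plus strand: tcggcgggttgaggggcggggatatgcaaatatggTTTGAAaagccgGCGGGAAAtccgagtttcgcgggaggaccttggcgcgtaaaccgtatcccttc
RBL1, chr20:37095998-37096097, minus strand: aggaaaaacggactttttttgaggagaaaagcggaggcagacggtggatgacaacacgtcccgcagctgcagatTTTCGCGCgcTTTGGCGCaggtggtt
In E2F1 the matches began at positions −33 and −20 from the start site, the first on the opposite strand. In RBL1 they began at −26 and −16. E2F2 had a single match at −42, and E2F3 a match at −53 on the opposite strand next to CHR letters at −65. RBL2 held CHR letters at position 25 after its first start site, and the windows of E2F4, E2F6 and E2F7 held none of these letters. A match describes the letters only and is not a measured binding site.

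**Figure D1:**
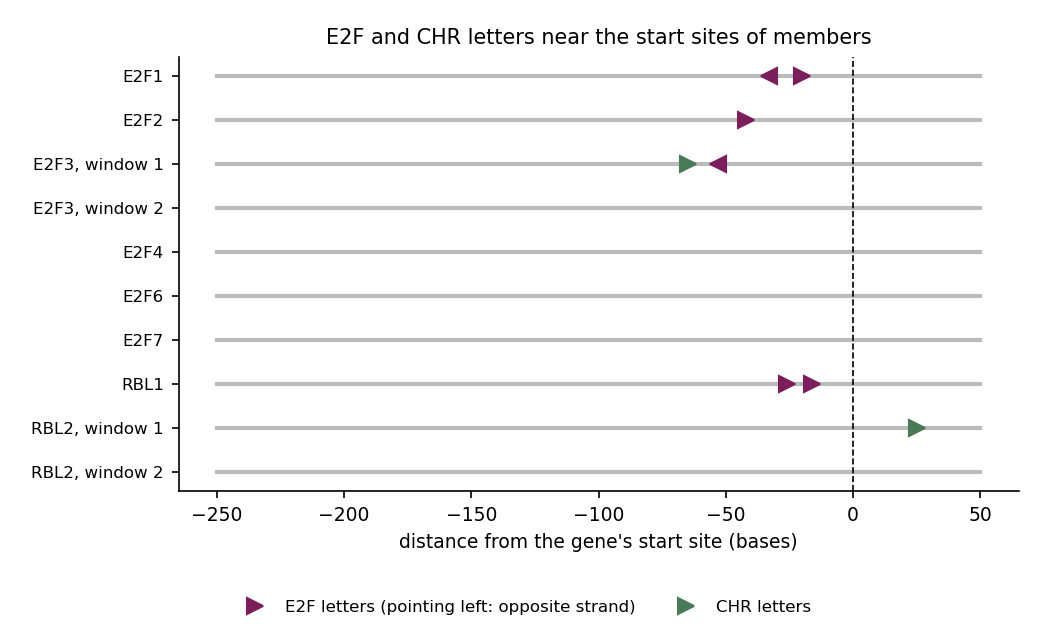
Positions of E2F letters (purple) and CHR letters (green) in the 10 RefSeq windows of 8 member genes. The x axis gives the distance from the start site in bases, grey lines are the windows from 250 bases before to 50 after it, and arrowheads pointing left mark letters on the opposite strand. The E2F letters of E2F1, E2F2, E2F3 and RBL1 all lie between −53 and −16, and the windows of the remaining genes hold none.

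No member differed by 1.5-fold. Of the 15 member probes, 0 were at least 1.5-fold higher on both arrays and 0 at least 1.5-fold lower, beside 0.421% and 0.429% of all 25664 measured probes. The count was also 0 at 2-fold, which 0.0546% of all probes passed as higher and 0.0857% as lower, and at 1.2-fold, a threshold added after the data were seen, which 3.14% passed as higher and 3.28% as lower. By direction alone, 4 member probes were higher on both arrays, 4 were lower on both, and 7 had opposite signs, where 25.0% of all measured probes were higher, 26.4% lower and 48.6% opposite, so the members' directions lay near those of the whole array. With each gene taken by its brightest probe, the median log2 ratio of the 10 genes was −0.01 (0.09 with normal labelling and 0.00 on the swap) and that of all 13812 measured genes was 0.00. The largest mean ratios of the members in either direction were those of E2F5 and E2F4. As RNA of whole cultures was hybridised, fewer cells in a phase of the cell cycle and less RNA per cell cannot be told apart.

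**Figure D2:**
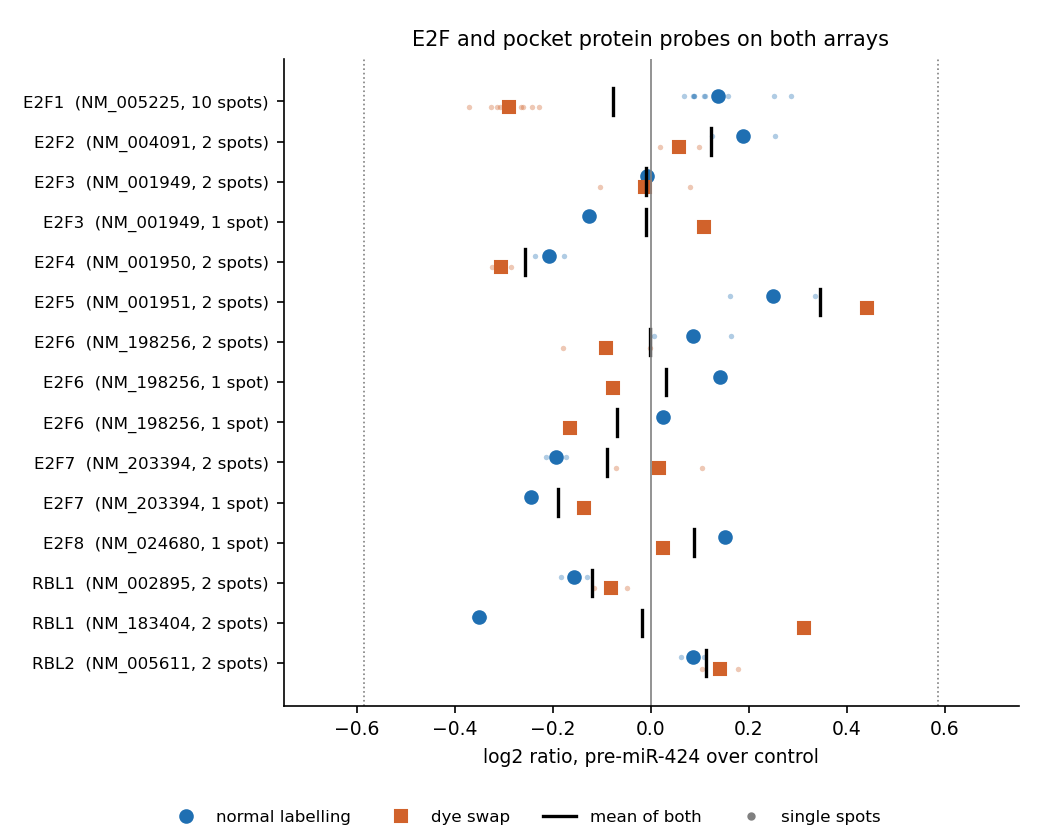
Log2 ratio of pre-miR-424 over control for each of the 15 member probes. Blue circles are the array with normal labelling, orange squares the dye swap with its sign turned, small dots single spots, black bars the mean of both arrays, and dotted lines the 1.5-fold limits at 0.585 on either side of 0. Every probe lies inside the dotted lines on both arrays, E2F5 lies right of 0 and E2F4 left of 0 on both, and the second RBL1 probe has its arrays on opposite sides.

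Among the activators, E2F2 alone had a ratio above 0 on both arrays, although with median centring in place of loess its swap turned to −0.17. The E2F2 probe (NM_004091) gave 0.19 with normal labelling and 0.06 on the swap, a mean of 0.12 ± 0.09 (SD, n = 2 arrays). The bright probe of E2F3 (NM_001949) gave −0.01 on both arrays, with a mean of −0.01 ± 0.002. Its spots on the swap ran from −0.10 to 0.08, and with median centring its arrays gave 0.17 and −0.32. The small SD therefore overstates its precision. The second E2F3 probe, of the same accession, gave −0.13 and 0.11, opposite signs around a mean of −0.01, on median signals of 175 to 309 over local backgrounds of 22 to 61. E2F3 therefore had means near 0 at both of its probes.

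E2F1 (NM_005225) was printed as 10 spots, which allows a look at the error within an array. All 10 spots were above 0 on the normal array, from 0.07 to 0.29, and all 10 were below 0 on the swap, from −0.37 to −0.23. The arrays gave 0.14 and −0.29, a mean of −0.08 ± 0.30 (SD, n = 2 arrays), whereas the SD among spots was 0.07 and 0.04. On the scale of normalised log2 levels, E2F1 stood at 11.10 in pre-miR-424 cells and 10.96 in the control on the normal array, and at 10.91 and 11.20 on the swap. The Cy5 channel was thus the higher on both arrays, and the part that followed the dye, the mean of the Cy5 over Cy3 ratios before the sign was turned, was 0.21 against a mean ratio of −0.08. The arrays gave no common direction for E2F1.

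E2F4 and E2F5, the factors that act with p107 and p130, lay on opposite sides. E2F4 (NM_001950) had a normalised log2 level of 11.46 in pre-miR-424 cells against 11.67 in the control on the normal array, and of 11.33 against 11.63 on the swap. These levels gave ratios of −0.21 and −0.31, a mean of −0.26 ± 0.07 (SD, n = 2 arrays), which is 1.19-fold lower. E2F4 was lower on both arrays under every normalization tried, with means from −0.32 to −0.26, although with median centring the arrays stood apart at −0.05 and −0.58. A share of 6.70% of all measured probes had a lower mean ratio.

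E2F5 (NM_001951) stood at 10.26 in pre-miR-424 cells and 10.01 in the control on the normal array, and at 10.35 and 9.91 on the swap. Its ratios were 0.25 and 0.44, a mean of 0.34 ± 0.14 (SD, n = 2 arrays), or 1.27-fold higher. Of all measured probes, 3.33% had a higher mean ratio. E2F5 was higher on both arrays under every normalization tried, with means from 0.29 with median centring to 0.40 with the scanner software's own ratios, and with those software ratios it passed 1.2-fold on both arrays, at 0.34 and 0.47.

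Taken within each array, the ratio of E2F5 exceeded that of E2F4 by 0.46 with normal labelling and 0.75 on the swap, a mean difference of 0.60 ± 0.21. This pair was chosen after the values were seen. A constant shift of an array cancels in such a difference, though an intensity-dependent one such as loess does not, and its mean lay between 0.60 and 0.66 under the 5 other normalizations. With median centring it was 0.42 and 0.79 on the arrays.

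E2F6, the repressor that acts without pocket proteins, was represented by 3 probes of a single accession (NM_198256), and all 3 were above 0 on the normal array and below 0 on the swap. The brightest gave 0.08 and −0.09, the next 0.14 and −0.08, and the dimmest 0.03 and −0.16. Their means were 0.00, 0.03 and −0.07, and the part that followed the dye was 0.09, 0.11 and 0.10. At each E2F6 probe this part was larger than the mean ratio. Its median size over all measured probes was 0.0969. With a single array per labelling, a dye effect cannot be told apart from other differences between the arrays.

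Of the atypical factors, E2F7 had 2 probes of accession NM_203394. The brighter gave −0.19 and 0.02, with a mean of −0.09 ± 0.15, and the dimmer gave −0.25 and −0.14, with a mean of −0.19 ± 0.08 (SD, n = 2 arrays). The means of both E2F7 probes were below 0 under every normalization tried, although the brighter probe's swap was above 0 after loess. E2F8 (NM_024680), which is known to act beside E2F7, had a single spot that gave 0.15 and 0.02, a mean of 0.09 ± 0.09, and median centring turned its swap to −0.18.

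The pocket proteins among the members, RBL1 and RBL2, had small ratios, whose means were below the error of a mean given further on. No other pocket protein was examined. RBL1, which encodes p107, had normalised log2 levels at its bright probe (NM_002895) of 10.52 in pre-miR-424 cells and 10.68 in the control on the normal array, and of 10.50 and 10.59 on the swap. The ratios were −0.16 and −0.08, with a mean of −0.12 ± 0.05 (SD, n = 2 arrays). RBL2, which encodes p130, stood at 10.15 and 10.06 on the normal array and at 10.17 and 10.02 on the swap. Its probe (NM_005611) thus gave 0.09 and 0.14, a mean of 0.11 ± 0.04, but with median centring the swap turned to −0.09. The ratio of RBL2 exceeded that of the bright RBL1 probe by 0.24 and 0.22 within the arrays, a pair also chosen after its values were seen. This difference lay between 0.23 and 0.28 under the 5 other normalizations. It did not hold for another RBL1 probe, at −0.35 and 0.31, which lay below RBL2 on the normal array but above RBL2 on the swap.

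The second RBL1 probe, which the design assigns to the transcript NM_183404, differed most between the arrays of all member probes. It gave −0.35 and 0.31, a mean of −0.02 ± 0.47 (SD, n = 2 arrays), while its 2 spots differed little within an array, with SDs of 0.01 and 0.002. The Cy3 channel was the higher on both arrays, with levels of 9.13 against 8.78 on the normal array and of 9.16 against 8.84 on the swap. Spots on an array agreed here, and the arrays did not.

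**Figure D3:**
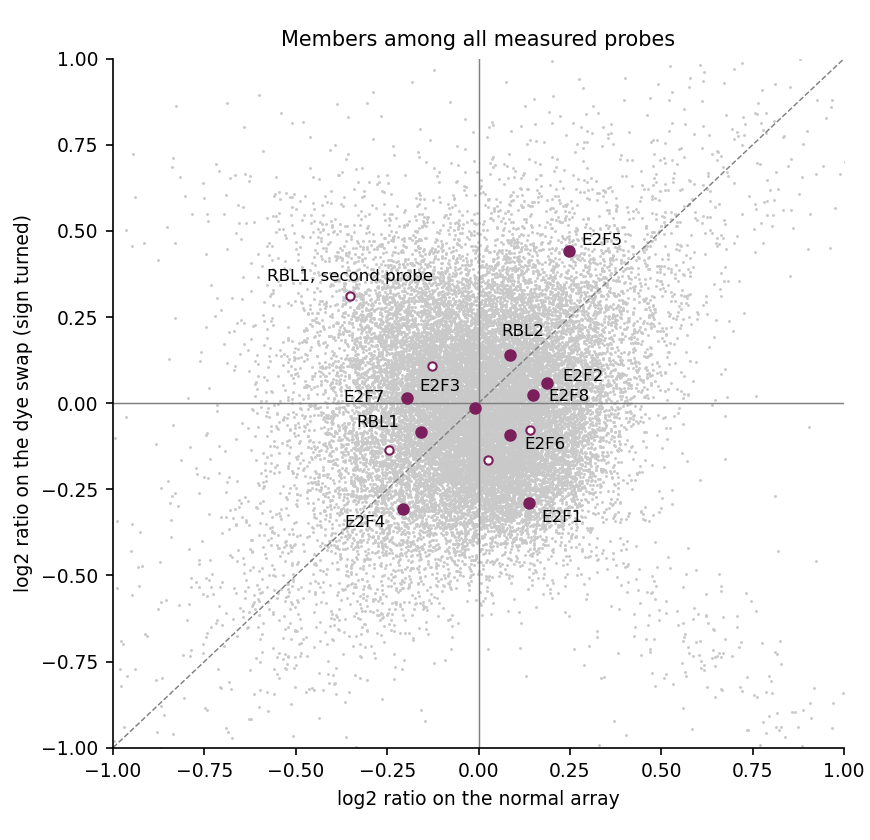
Log2 ratio on the dye swap (y axis, sign turned) against log2 ratio on the array with normal labelling (x axis) for all measured probes (grey) and the members (purple, with open circles for further probes of a gene). The dashed line marks equal ratios, and 158 of 25664 probes lie outside the drawn range of −1 to 1. E2F5 lies in the upper right and E2F4 in the lower left, while E2F1 and the second RBL1 probe lie where the arrays disagree; under median centring E2F2, E2F8 and RBL2 move to a negative swap ratio.

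For scale, Pearson's correlation between the arrays was 0.157 across all measured probes, which are not independent replicates, and the error of a single array, the SD of the arrays' differences divided by the square root of 2, was 0.236 on the log2 scale, or 0.167 for the mean of both. The arrays' differences also hold any dye effect of a probe, which would cancel in the mean if constant, so 0.167 may overstate that error. Only the means of E2F5, E2F4 and the dimmer E2F7 probe were larger in size than 0.167. Of all measured probes, 6.8%, 13.2% and 23.1% had means larger in size than these, in that order. The dimmer E2F7 probe was a single spot with signals of 207 to 431. The cell line's label was checked against marker genes: all 7 basal epithelial markers were measured, with control signals of 3388 to 73080 on the normal array, against 7 of 17 markers of luminal, stromal, blood or neuroendocrine cells, at 82.8 to 1605. KLK3, MSMB, PECAM1, VWF, CD3E and CHGA were not well above background. Probes differ in affinity, so these signals show detection and do not rank the genes' levels. The measured markers of other cell types had mean ratios from −0.30 (CD68) to 0.10, and their part in the members' values was not tested.

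The enzymes that phosphorylate the pocket proteins were mostly lower in pre-miR-424 cells. Of 8 listed cyclins and kinases 7 were measured, 5 were lower on both arrays and past 1.2-fold, and the median ratio was −0.51 against 0.00 over all genes. Of all measured genes 26.7% were lower on both arrays. Of all measured probes 3.28% passed 1.2-fold lower and 0.429% passed 1.5-fold lower. CCND2, a D-type cyclin, gave −0.59 with normal labelling and −0.67 on the swap, and CCNE1, cyclin E1, gave −0.62 and −0.92, so both fell past 1.5-fold on both arrays. With median centring neither passed, since the normal array then gave −0.16 and −0.48. The count past 1.2-fold went from 5 to 3, without CCND2 and CDK4, while all 5 were still lower on both arrays. Median centring left all measured probes at a median of 0.101 with normal labelling and −0.183 on the swap. Shares of all genes past a threshold under that setting were not computed.

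The remaining genes of that list did not pass 1.5-fold on both arrays. CCND3 passed it on the normal array alone. CCND3 gave −0.67 and −0.54, CDK6 −0.58 and −0.45, and CDK4 −0.42 and −0.27, all partners in the cyclin D kinases. CCNE2 gave 0.19 and 0.09, with −0.16 on the swap under median centring, and CDK2 gave −0.07 and 0.21. CCND1 had an outlier spot and gave no value. The lower ratios were thus found in cyclin D2, D3 and E1 and in CDK4 and CDK6, and not in CCNE2 or CDK2.

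The DP partners and the MuvB complex, which joins E2F4 or E2F5 and a pocket protein in the DREAM complex, held no gene past 1.2-fold on both arrays. TFDP1 gave −0.04 and −0.12 and TFDP2 0.01 and 0.23, and TFDP3 had an outlier spot; median centring turned the normal array of TFDP1 to 0.23 and the swap of TFDP2 to −0.04. All 7 genes of the MuvB list were measured, with a median of −0.06. Of these, 3 were lower on both arrays and 1 was higher, beside 26.7% and 26.8% of all measured genes. FOXM1, the forkhead factor that binds MuvB in late cell cycle, gave −0.21 and −0.54, a mean of −0.37 and thus larger in size than any member's mean. LIN54, the DNA-binding subunit of MuvB, was next lowest with −0.31 and −0.01, and its swap turned to 0.01 with the scanner software's ratios, whereas LIN37, a MuvB subunit, gave 0.10 and 0.16, with −0.10 on the swap under median centring. MYBL2, which encodes B-MYB, gave −0.04 and −0.20, with 0.22 on the normal array under median centring. The other MuvB genes had opposite signs on the arrays, with mean ratios of 0.01 for LIN9, 0.04 for LIN52 and −0.06 for RBBP4.

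The Polycomb-type partners of E2F6 were also spread around 0. All 9 were measured, with a median of −0.01, and 6 of them had opposite signs on the arrays, beside 46.5% of all measured genes. PCGF6 had the highest mean, from 0.01 and 0.35, followed by L3MBTL2 with 0.20 and −0.06. MAX had the lowest, from 0.03 and −0.31, followed by RYBP with −0.16 and −0.03. No gene of this list passed 1.2-fold on both arrays.

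The genes that E2F factors are known to control in G1 and S phase did not move together. Of 32 listed genes 30 were measured, 13 were higher on both arrays and 9 were lower, beside 26.8% and 26.7% of all measured genes. The list's median ratio was 0.07, from 0.03 and 0.07 on the single arrays. With median centring 1 was higher and 6 were lower on both arrays, so these directions depend on whether loess or median centring is used. Median centring shifted all measured probes in opposite directions on the arrays, as given above. Shares of all genes under it were not computed, so this change is not shown to be particular to the list. The list's median over all alternatives using both arrays ran from 0.02 to 0.08. None was 1.2-fold higher, except CDC6 when the scanner software's ratios were used, and 2 passed 1.2-fold lower, of which 1 passed 1.5-fold. These were CCNE1, described above, and CDC25A, the phosphatase that activates CDK2, with −0.52 and −0.53. The licensing factor CDT1 gave 0.36 and 0.23, with −0.06 on the swap under median centring. CDC6, which loads the MCM helicase with CDT1, gave 0.26 and 0.19, or 0.40 and 0.39 with the software's ratios. Its control signal of 122.5 on the normal array was the lowest among the measured genes of the list.

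Genes of G2 and M phase, known targets of the DREAM and MYB-MuvB complexes, gave a median of −0.03 over the 18 measured of 22 listed. On both arrays 5 were higher and 7 lower, beside 26.8% and 26.7% of all measured genes. With median centring, and the same shift of all measured probes, 0 genes of the list were higher and 2 lower. PLK1, a mitotic kinase, gave −0.38 and −0.57 and was the only gene of the list past 1.2-fold, and with median centring its −0.22 on the normal array missed that limit. KIF23, a kinesin of cytokinesis, was next lowest with −0.09 and −0.25, but with median centring its normal array turned to 0.19. AURKA, another mitotic kinase, gave 0.14 and 0.42, and NUSAP1, a spindle protein, gave 0.26 on both arrays, but median centring turned both swaps below 0, to −0.09 and −0.13.

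**Figure D4:**
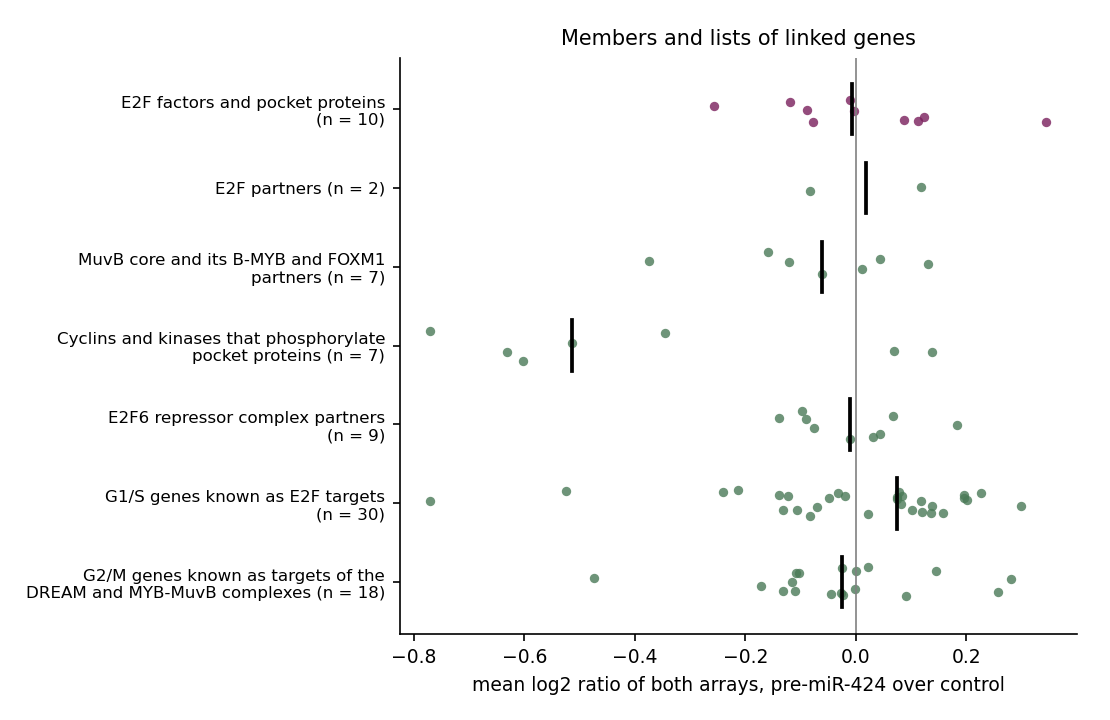
Mean log2 ratio of both arrays (x axis) for the 10 member genes (purple) and for the measured genes of 6 lists linked to them (green), each gene by its brightest probe, with black bars for the medians. The cyclin and kinase list has its median at −0.51, while the medians of the members and of the other lists lie between −0.06 and 0.07; CCNE1 and CCNE2 stand in 2 lists.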

How the data were processed

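Per the file headers, the arrays were read with Feature Extraction 10.7.3.1 on a design annotated to hg19. The deposited scanner files hold, for each spot, the median signal and median local background per dye as intensity on a linear scale, not normalized, with marks for detection, saturation and outliers, and a log10 ratio, Cy5 over Cy3, after the software's own background correction and dye normalization. A table of log2 ratios was deposited too, for which the authors state no scale, centring or direction, and their processing notes name limma. Set against the values computed here, its columns were Cy5 over Cy3 on both arrays (Pearson's r = 0.9908 and 0.9885 across 42405 probes, column medians 0.02362 and 0.03555), so the swap was turned.

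Using R 4.3.3 and limma 3.58.1, normexp (offset 50) was applied to the median signals, which draws the ratios of dim probes towards 0. Each array was then normalized by loess with control spots at weight 0, so that they did not shape the fit, and control spots were left out afterwards. Aquantile scaling served the levels only. Spots of a probe were averaged, and over 50% of them had to be well above background for a probe to count as detected. Of 25983 probes detected in both dyes on both arrays, 319 with an outlier spot were left out. Of 27134 probes with RefSeq accessions, 25771 (95.0%) matched a symbol, and a gene was represented by its brightest probe. Signals were well above background at 66.8% to 70.1% of spots, 0 spots were saturated, and the number of arrays limits the precision. A probe was called where both arrays were 1.5-fold or more in 1 direction. Named genes were all members, any gene of lists of 8 or fewer, and the 2 highest and 2 lowest of longer lists. The members and lists were chosen with earlier results of these data known. Python 3.11.15 with pandas 2.3.3 and numpy 2.4.6 was used, and the steps were tested on simulated data. Alternatives were other background corrections, centring, software or authors' ratios, filters, probe rules, thresholds and single arrays.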

Additional observations from a re-analysis of the deposited data

How the results depend on the processing

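The count of member probes past 1.5-fold on both arrays was 0 under every alternative tried, including 2-fold, 1.5-fold of the mean alone, single arrays and 1.2-fold. The median of the member genes, −0.0069, lay between −0.0119 and −0.0018 under all alternatives using both arrays except median centring, which gave −0.0689, and single arrays gave 0.0019 to 0.0850. Median centring put the median over all measured probes at 0.101 with normal labelling and at −0.183 on the swap. With it 1 of the 10 genes was higher and 3 were lower on both arrays, and shares of all genes were not computed. Over 8 alternatives using both arrays, 11 of 15 member probes kept the sign of their mean, and of 120 values 5 changed sign, all at the second E2F3 probe, E2F6 and the second RBL1 probe, whose means were near 0, and 5 moved by more than the SD between arrays. The cause was not tested. Alternatives that changed only the filter could not alter the members' values or counts, since all 15 probes were already measured. The authors' ratios differed little from the main ones, so they added little to this comparison. The cyclin and kinase median ran from −0.57 to −0.51, and was −0.58 and −0.45 on single arrays.

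No paired analysis was possible because both arrays belong to 1 comparison and the ratio was already taken within each array. With 1 replicate, differences between cultures were not measured, and a ratio under about the 0.167 error of a mean could not be told from labelling and hybridisation error. A larger ratio is not thereby told from such error, since 0.167 is a typical error over all measured probes and not a limit.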
